A study of Ambystoma mexicanum with 8 samples.

Results

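Histones are the proteins that DNA is wrapped around, and the transcripts of their genes were followed here in single cells of axolotl (Ambystoma mexicanum) limb tissue. Gene models of the deposited matrix were counted as histone genes by their symbol. It had to start with H1, H2A, H2B, H3 or H4 and go on as a histone name does. The 5 H3-3A rows were left out and set beside the rest. This gave 60 of the 61014 gene models. The symbol was read as the last hyphen-separated part of the row name in 50 of them, and the other 10 are linker histone rows such as H1-3, whose symbol itself holds a hyphen. The choice used names only and no measured value. The study set limb cells of contra animals, which match the systemically-activated limbs of the series text and were collected 14 days after an amputation, against cells of intact limbs, which match its homeostatic limbs. All animals were wild-type, and no drug treatment or age is given in the labels. Cells were sorted on a DNA stain for a 2C content (that of a cell before replication) as live cells, and the sources call this fraction non-dividing in one place and dividing in another. The analysis covers 4 contra samples (numbers 1, 2, 4 and 5) and 3 intact samples (numbers 1, 2 and 4), and intact 5 was not analysed here.

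Core histones (H2A, H2B, H3 and H4) form the nucleosome, and linker histones (H1) bind the DNA between nucleosomes. In most animals the genes of the histone clusters are transcribed while DNA is replicated, and their mRNAs end in a stem-loop bound by SLBP in place of a poly(A) tail. Variant histones such as H2A.Z are made throughout the cell cycle from polyadenylated mRNAs. Libraries of this kind start from poly(A), so they register a histone transcript only where a tail or an internal run of A is primed. Whether the axolotl transcripts carry a tail was not measured, and no transcript sequence was used here. Roles given below follow the human gene names in the files and were not tested in axolotl.

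Levels are given in CPM, here UMIs per 1000000 non-haemoglobin UMIs, since haemoglobin took 25 to 54.6% of the UMIs of a sample; 3′ UMI counts do not depend on transcript length. The samples hold 4333 to 5675 kept cells (contra) and 4411 to 5025 (intact), with 96526090 to 131397510 UMIs each. Cell classes were set by marker UMIs: 13438 erythroid, 9860 T, 7140 epidermal, 1787 B and 430 macrophage cells, while 669 cells that passed the rules of more than 1 class, 225 collagen-rich cells and 1025 cells of no class stayed out of the class comparisons. CD3E and KRT5 were among the markers that set the classes, so their levels describe the classes and do not test them. Per 1000000 UMIs of all kinds in non-cycling cells, CD3E was at 634 in T cells and at most 4.94 in the other classes. KRT5 was at 20107 in epidermal cells and at most 108 elsewhere. ALAS2, which set no class, was at 1746 in erythroid cells and at most 18.8 elsewhere. A cell was called cycling when MKI67 and TOP2A together had 2 or more UMIs, and 4283 of 34574 kept cells (12.4%) did. Cycling cells were deeper than the others: the median cell had 42449.5 UMIs against 26088.5 in the erythroid class, 21011 against 11484 in T cells and 26313 against 21503 in epidermal cells. Without haemoglobin the medians were 10392 against 5312 in erythroid, 20938 against 11388 in T and 26228 against 21440 in epidermal cells. On the CPM scale erythroid cells were thus the shallowest, and the same line of 2 UMIs asked for a higher marker level there.

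The 60 histone gene models held 3668936 UMIs, or 8241 CPM. Reads came very unevenly: the 4 highest models took 76.0% of the histone UMIs, the 12 highest 98.1%, and 8 models had 10 UMIs or fewer. H2A models took 44.4% of the histone UMIs, H2B 30.8%, H1 17.9%, H3 6.38% and H4 0.476%. These shares leave out H3-3A, whose models AMEX60DD201036269.5 and AMEX60DD301020670.1 had 256559 and 147488 UMIs, against 233965 in the H3 models counted. H2BC12 (AMEX60DD201003405.1) led with 903451 UMIs, followed by H2AJ (AMEX60DD201009461.2) with 809617, H1-3 (AMEX60DD301007182.1) with 612539 and H2AC20 (AMEX60DD301028089.1) with 461627. By name, 39 models are core genes of the clusters (55.8% of the UMIs), 11 are core variants (26.3%), 8 are linker genes of the clusters (16.7%) and 2 are other linker genes (1.16%). Several symbols recur: 11 models are called H2AC20, 8 H3C14, 5 H2AX and 4 H2AC21, so they are given with their identifiers. How the deposited counting dealt with reads that match several near-identical copies is not given in the sources used here, so the split of UMIs among such copies is uncertain. The row names of 53 of the 60 models put a further name before the histone symbol, mostly a LOC name, and the files do not say what that name stands for. The H2AJ model with most UMIs is named H2AX-H2AJ, a further row is named H2AC17-H2AJ, and the H2BE1 row also names ABCF2, so the identity of these rows rests on the last part of the name.

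Cycling cells, 12.4% of the cells and the source of 17.8% of the non-haemoglobin UMIs, gave 71.9% of the histone UMIs. The share was 85.5% for H2BC12, 86.1% for H2AJ, 91.7% for H3C14 AMEX60DD301038934.1 and 92.7% for H2AC20 AMEX60DD201035414.1. It was 42.1% for H2AZ1 (AMEX60DD301044272.1, an H2A.Z gene), 28% for H1-3, 27.7% for H1-10 (AMEX60DD301023369.1) and 9.06% for H1-8 (AMEX60DD103023500.2). Summed over all 60 models, the level per sample in erythroid cells averaged 71194 ± 8331 in cycling and 4717 ± 1116 in non-cycling cells (SD, n = 7 samples each). In T cells the sums were 19998 ± 4892 and 2477 ± 155 (SD, n = 7). In epidermal cells they were 14460 ± 6650 over the 6 samples with at least 10 cycling cells and 2392 ± 391 over 7. B cells had 19547 ± 9033 over 3 samples in cycling and 2619 ± 625 over 7 in non-cycling cells, and non-cycling macrophages, with 27 cycling cells in all, had 2682 ± 339. On this scale the sum of cycling erythroid cells was the highest, but that order turns when haemoglobin is counted in the total. Per 1000000 UMIs of all kinds the cycling sums were 18344 ± 2245 in erythroid cells, against 19912 ± 4901 in T, 19428 ± 8971 in B and 14416 ± 6644 in epidermal cells, ranges that overlap. The non-cycling sums were then 1049 ± 279 in erythroid cells, against 2383 to 2668 in the other 4 classes. Every erythroid level given in CPM is raised in this way when set beside another class.

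**Figure D1:**
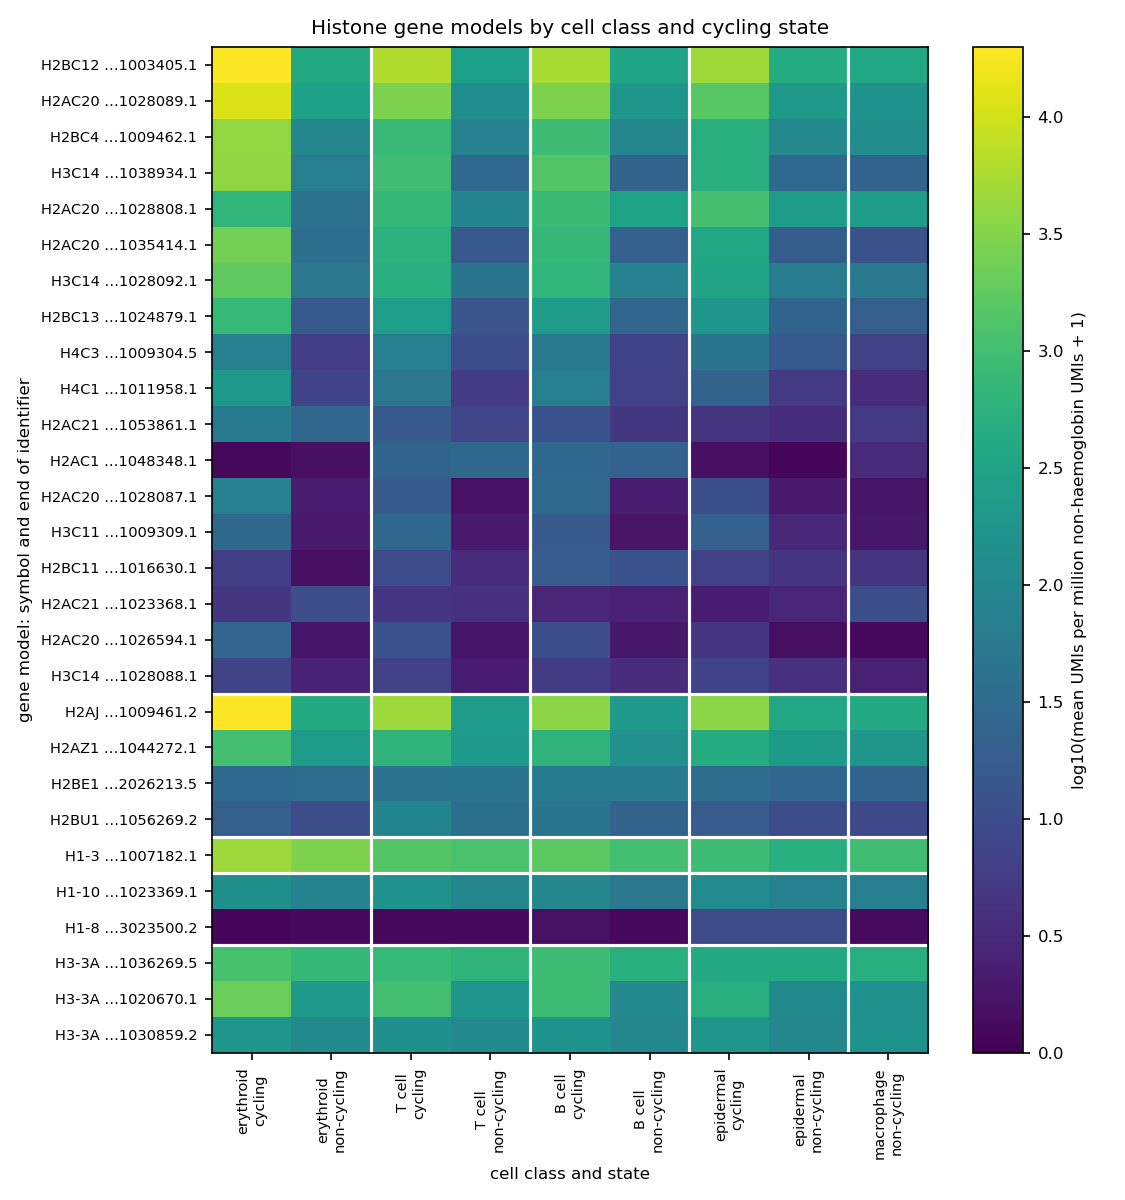
Mean level over samples, as log10 of CPM plus 1, of the 25 histone gene models with at least 1000 UMIs and of 3 H3-3A models, by cell class and cycling state. The cluster-named core genes with most UMIs are brighter in the cycling columns, where H2BC12 averages 19825 in erythroid cells, than in the non-cycling ones. H1-3 is bright in both.

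The core genes of the clusters made up the largest difference between cycling and non-cycling cells. H2BC12 had 16093, 18672 and 23651 CPM (lowest, median and highest of 7 samples) in cycling erythroid cells, against 118, 328 and 918 in non-cycling ones. H2AC20 AMEX60DD301028089.1 had 9883, 11987 and 15324 CPM in cycling erythroid cells, against 87.9, 241 and 572 in non-cycling cells. H3C14 AMEX60DD301038934.1 had 1879, 4182 and 6087 CPM in cycling erythroid cells, against 19.5, 63.5 and 134 in non-cycling cells. Cycling and non-cycling samples did not overlap for any of the 3, and the lowest cycling sample was more than 10 times the highest non-cycling one. In T cells H2BC12 had 3946, 5953 and 8565 CPM in cycling cells, against 179, 239 and 353 in non-cycling cells. In epidermal cells it had 2022, 4725 and 7227 CPM in cycling cells (6 samples), against 311, 425 and 653 in non-cycling cells (7 samples). The 3 samples with enough cycling B cells were contra 1 with 7860, intact 1 with 6814 and intact 2 with 1877, against 221, 257 and 612 (lowest, median and highest) in non-cycling B cells. Intact 2 was low for H3C14 AMEX60DD301038934.1 as well, with 584, against 1777 in contra 1 and 1845 in intact 1.

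The comparison was tested on UMIs summed per sample with edgeR's quasi-likelihood test, the sample as a block and Benjamini-Hochberg adjustment over all genes tested. In erythroid cells 25 of the 25 histone models tested passed an adjusted p of 0.05, 23 higher and 2 lower in cycling cells; of all 12638 genes tested 49.2% passed, 23.9% higher and 25.3% lower. In T cells 23 of 26 rose and 1 fell (of all genes 46.5% passed, 25.6% higher and 20.9% lower). In epidermal cells 21 of 24 rose and none fell, beside 23.3% of all genes called and 11.8% called higher. In B cells 17 of 22 rose and none fell, beside 10.6% of all genes called, 6.18% higher and 4.39% lower. The models left untested in a class were below the filter on low counts, which a model can pass through the cells where it is high, so these counts describe the models tested and not all 60. The median log2 fold change of the models tested was 4.61 in erythroid, 2.81 in T, 2.25 in B and 1.97 in epidermal cells, while the medians over all genes lay between −0.03 and 0.011. H2BC12 rose by a log2 fold change of 5.89 ± 0.28 in erythroid (SE; adjusted p = 1.4e-12, edgeR), 4.45 ± 0.070 in T (1.8e-27), 3.43 ± 0.13 in B (1.7e-23) and 3.04 ± 0.24 in epidermal cells (3.6e-09). These folds depend on where the cycling line is drawn. With cycling called at 1 UMI or more on cells thinned to 3000 UMIs, that of H2BC12 was 3.3 in erythroid and 3.5 in T cells. With the line at 1 UMI on full counts it was 2.20 in epidermal cells.

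**Figure D2:**
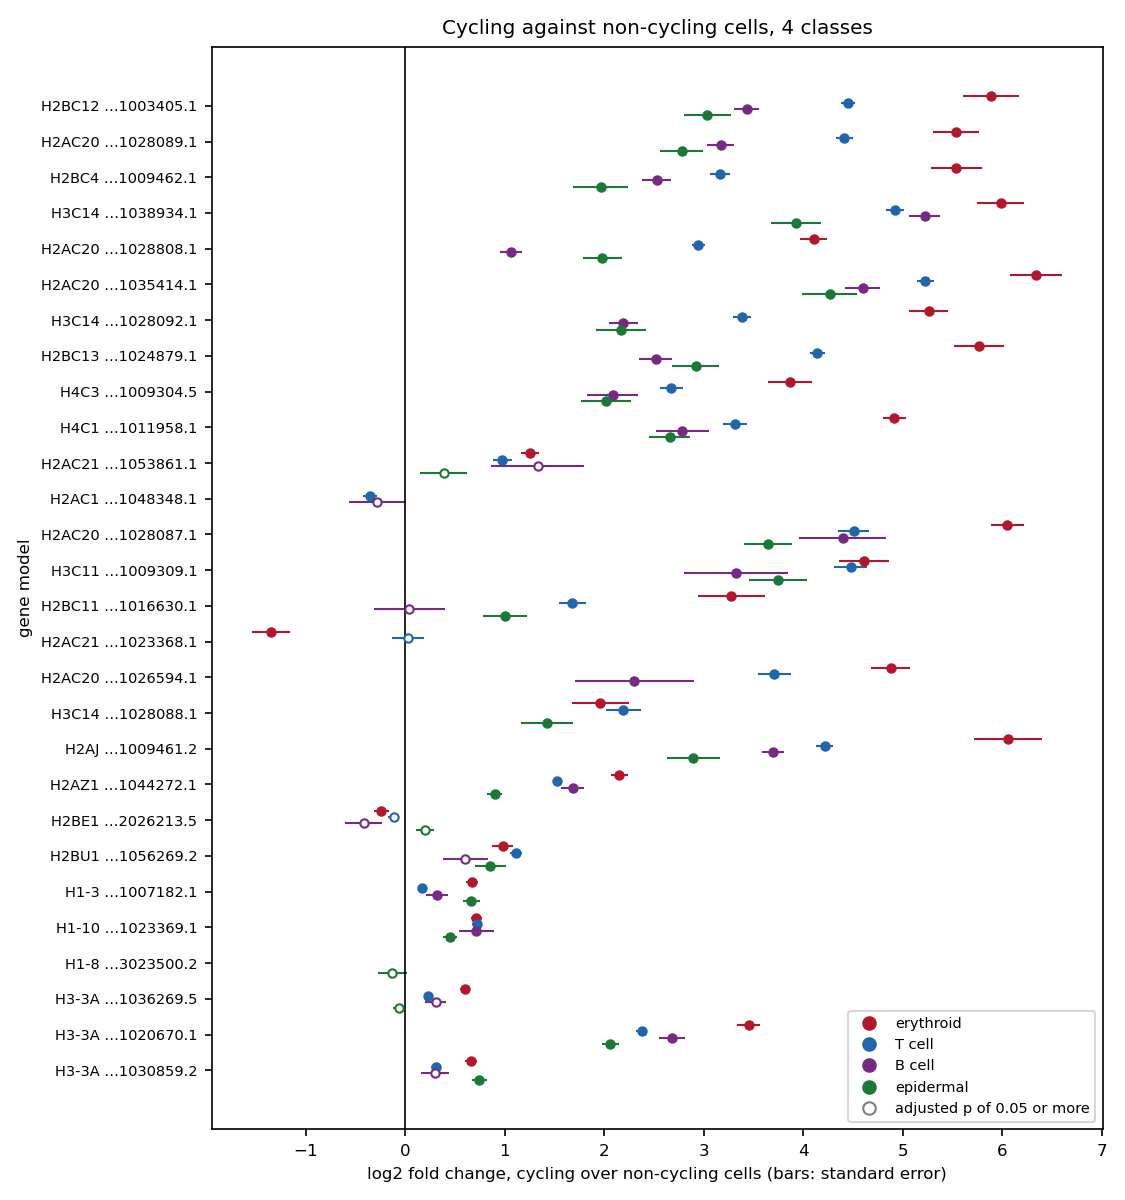
Log2 fold change, cycling over non-cycling cells, with its SE for the histone gene models tested in erythroid, T, B and epidermal cells; filled points passed an adjusted p of 0.05 in edgeR's test and open points did not. In erythroid cells the cluster-named core genes with most UMIs lie far right of 0 (H2BC12 at 5.89), while H1-3 (0.67) and H2BE1 (−0.24) lie near 0. The sparse cluster-named H2AC21 AMEX60DD201023368.1 lies left of 0 there.

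The other cluster-named core genes ran alike in erythroid cells. H2BC4 (AMEX60DD201009462.1) had 1497, 4029 and 6529 CPM in cycling erythroid cells, against 21.1, 89.8 and 177 in non-cycling ones, and rose by 5.54 ± 0.25 (log2 fold change, SE). H2AC20 AMEX60DD201035414.1 had 1429, 2473 and 3355 CPM in cycling erythroid cells, against 10.4, 26.8 and 81.8 in non-cycling cells, and had the largest fold of the 12 models with most UMIs, 6.34 ± 0.26. H3C14 AMEX60DD201028092.1 had 1113, 1693 and 2484 CPM in cycling erythroid cells, against 16.1, 46.9 and 77.3 in non-cycling cells. None of these 3 overlapped between cycling and non-cycling samples. H2BC13 (AMEX60DD201024879.1) had 608, 729 and 987 CPM in cycling erythroid cells, against 4.78, 15.2 and 28.9 in non-cycling cells. H2AC20 AMEX60DD201028808.1 had 454, 726 and 857 CPM in cycling erythroid cells, against 18.3, 40.3 and 67.4 in non-cycling cells, the smallest fold among the 8 cluster-named core models with most UMIs (4.11 ± 0.13). In B cells this model had 562, 944 and 1043 CPM in the 3 cycling samples, against 226, 296 and 384 in non-cycling ones, and rose by 1.06 ± 0.11. H4 genes were weakly covered. H4C1 (AMEX60DD201011958.1) had 70.3, 186 and 446 CPM in cycling erythroid cells, against 2.62, 5.73 and 14.6 in non-cycling cells, and H4C3 (AMEX60DD201009304.5) had 34.8, 74.5 and 122 CPM in cycling erythroid cells, against 1.92, 4.44 and 7.46 in non-cycling cells. They rose by 4.92 ± 0.12 and 3.86 in erythroid cells and by 2.66 and 2.02 in epidermal cells.

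The sparse cluster-named models mostly moved the same way. H2AC20 AMEX60DD301028087.1 had 44.0, 71.6 and 98.5 CPM in cycling erythroid cells, against 0.524, 1.07 and 2.42 in non-cycling ones, and H2AC20 AMEX60DDU001026594.1 had 16.9, 26.6 and 29.8 CPM in cycling erythroid cells, against 0, 0.803 and 1.54 in non-cycling cells. H3C11 (AMEX60DD201009309.1) had 5.73, 23.6 and 50.1 CPM in cycling erythroid cells, against 0.466, 0.930 and 2.42 in non-cycling cells. H3C14 AMEX60DD201028088.1 had 3.74, 5.34 and 14.7 CPM in cycling erythroid cells, against 0.386, 1.70 and 3.44 in non-cycling cells, and rose by 1.96, less than the other H3 models of this size. H2BC11 (AMEX60DD201016630.1) had 2.68, 5.12 and 7.76 CPM in cycling erythroid cells, against 0.0583, 0.573 and 1.09 in non-cycling cells, and rose by 3.28 ± 0.33 in erythroid and 1.68 in T cells. In B cells H2BC11 did not pass (0.04, adjusted p = 0.97, edgeR); the 1.00 ± 0.22 of epidermal cells (adjusted p = 0.0026) was 0.71 and no longer called without intact 4. Of the models with under 1000 UMIs, H2AC21 AMEX60DD201053860.1 had 5.60, 7.65 and 14.2 CPM in cycling erythroid cells, against 0.661, 1.22 and 1.93 in non-cycling cells, and rose by 2.70 ± 0.21. H2AC20 AMEX60DD201020646.1, with 96 UMIs in all cycling and 8 in all non-cycling erythroid cells, had 2.95, 3.74 and 6.30 CPM in cycling erythroid cells, against 0, 0.0739 and 0.778 in non-cycling cells, and rose by 4.88 ± 0.43. H1-5 (AMEX60DD201038938.3) had 2.25, 3.0 and 13.1 CPM in cycling T cells, against 0.326, 0.759 and 1.5 in non-cycling cells, and rose by 2.52 ± 0.24 there and by 1.36 ± 0.25 in epidermal cells. H3C14 AMEX60DD201009305.1, at 0.215, 3.05 and 4.65 CPM in cycling T cells against 0.217, 0.993 and 2.31 in non-cycling cells, rose by 1.24 ± 0.26 in T and 1.54 ± 0.34 in epidermal cells.

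A few cluster-named genes did not follow. H2AC21 AMEX60DD201023368.1 had 2.44, 3.21 and 6.49 CPM in cycling erythroid cells, against 6.61, 9.26 and 13.5 in non-cycling cells, so the groups did not overlap and it fell by 1.35 on the log2 scale (SE 0.19, adjusted p = 5.6e-06, edgeR). The other H2AC21 model with over 1000 UMIs, AMEX60DD201053861.1, had 43.4, 60.2 and 73.8 CPM in cycling erythroid cells, against 21.6, 22.3 and 32.4 in non-cycling cells, and rose by 1.25; in epidermal cells its difference was 0.39 ± 0.24 (adjusted p = 0.26). H2AC1 (AMEX60DD301048348.1), known in mammals as a testis H2A, had 17.4, 23.9 and 28.7 CPM in cycling T cells, against 21.6, 28.5 and 31.2 in non-cycling ones. These ranges overlap, and in the test paired by sample it fell by 0.35 on the log2 scale (SE 0.069, adjusted p = 9.4e-05, edgeR).

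The variant-named core genes split. H2AJ ran like the cluster genes, with 14834, 21133 and 24396 in cycling erythroid cells, against 62.4, 268 and 952 in non-cycling ones, and a log2 fold change of 6.06 ± 0.35 (adjusted p = 1.7e-11, edgeR). H2AZ1 had 902, 987 and 1190 CPM in cycling erythroid cells, against 159, 266 and 294 in non-cycling cells, and rose by 2.15 ± 0.085 in erythroid, 1.52 ± 0.041 in T, 1.68 ± 0.12 in B and 0.90 ± 0.074 in epidermal cells. Its samples did not overlap in any of the 4 classes. H2BU1 (AMEX60DD301056269.2) had 74.6, 86.5 and 105 CPM in cycling T cells, against 26.4, 39.7 and 44.7 in non-cycling cells, and rose by 1.11 ± 0.061. H2BE1 (AMEX60DD102026213.5), studied in mouse olfactory neurons, had 19.1, 26.6 and 35.2 CPM in cycling erythroid cells, against 27.9, 33.1 and 37.4 in non-cycling cells. It fell by 0.24 on the log2 scale (SE 0.079, adjusted p = 0.017, edgeR), a call lost without contra 2 (−0.19) or intact 1 (−0.21), and it did not pass in the other 3 classes. The 5 H2AX models, named for the variant that is phosphorylated at DNA breaks, had 8 to 152 UMIs each and passed no test.

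The linker genes H1-3 and H1-10 rose by less than the cluster-named core genes with most UMIs. H1-3 had 4116, 4706 and 5647 CPM in cycling erythroid cells, against 2719, 2794 and 3194 in non-cycling ones, and its log2 fold change was 0.67 ± 0.059 (adjusted p = 1.0e-08, edgeR). In T cells it had 1205, 1373 and 1637 CPM in cycling cells, against 1064, 1156 and 1273 in non-cycling cells, which overlap, and a log2 fold change of 0.17 ± 0.040. In epidermal cells it had 742, 870 and 1283 CPM in cycling cells, against 441, 474 and 588 in non-cycling cells, and a log2 fold change of 0.67 ± 0.086. In B cells the difference of 0.32 ± 0.11 (adjusted p = 0.049) was not called with DESeq2, with DESeq2's size factors, without the sample block or on thinned counts. H1-10, a linker gene expressed outside replication in mammals, had 114, 130 and 176 CPM in cycling erythroid cells, against 69.9, 78.0 and 100.6 in non-cycling cells. Its log2 fold change was 0.72 ± 0.053 in erythroid, 0.72 ± 0.051 in T, 0.72 ± 0.17 in B and 0.45 ± 0.070 in epidermal cells. H1-8, an oocyte linker gene in mammals, was at 7.71, 8.52 and 12.4 CPM in cycling epidermal cells, against 7.90, 8.64 and 10.6 in non-cycling cells, a difference of −0.13 (adjusted p = 0.58).

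**Figure D3:**
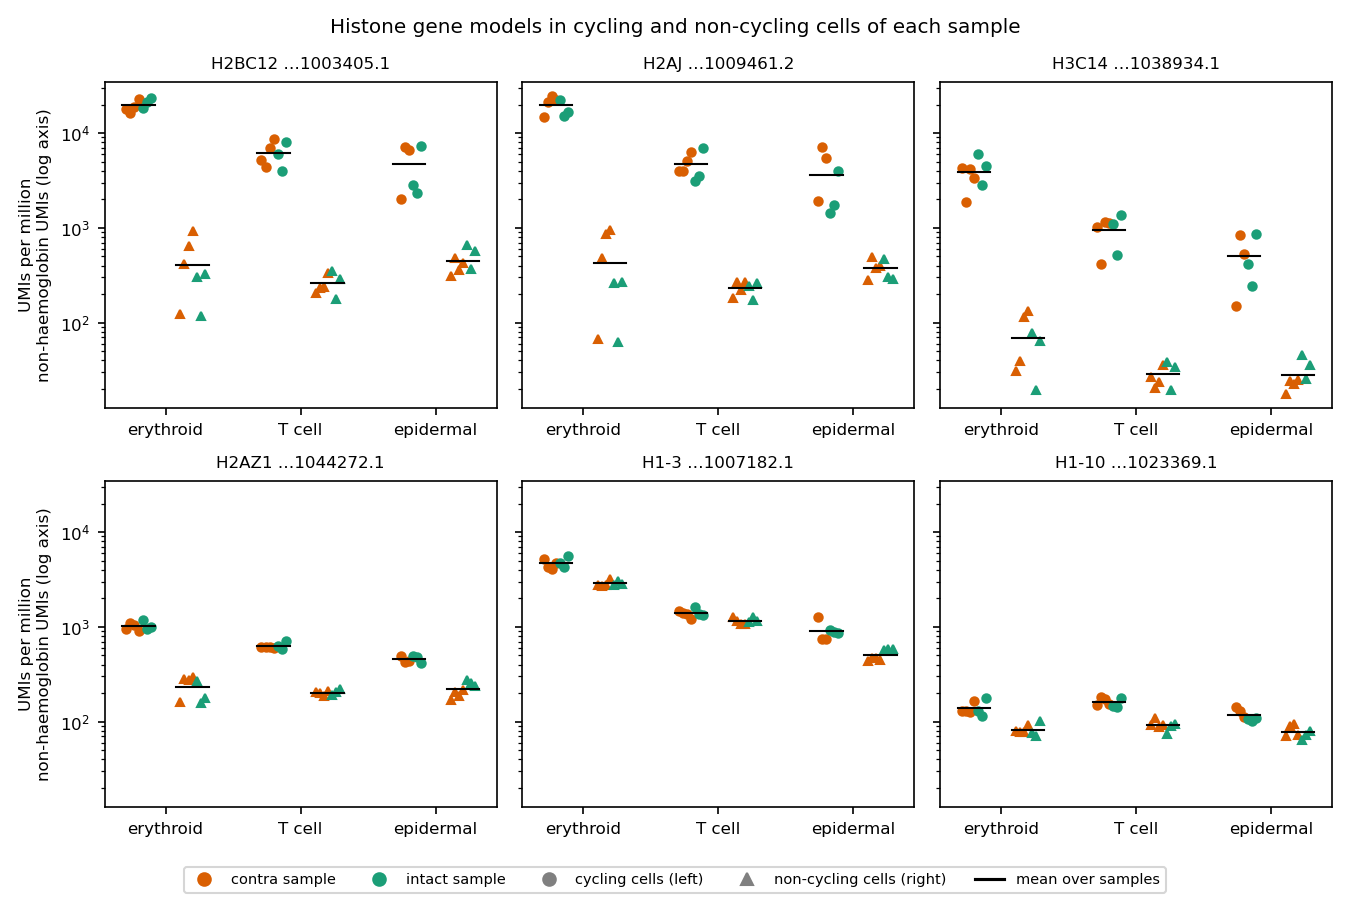
Level per sample (CPM, log axis) of 6 histone genes in erythroid, T and epidermal cells; circles are cycling and triangles non-cycling cells, contra in orange and intact in green, and a line marks the mean. Circles and triangles are far apart for H2BC12, H2AJ and H3C14 AMEX60DD301038934.1 (H2BC12 at 16093 or more against 918 or less in erythroid cells), and contra and intact points intermingle for these 3 genes in erythroid and T cells.

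The rise was not of 1 size across classes. In a joint fit with a term for each sample and class, the cycling effect differed between erythroid and T cells for 19 of 36 histone models, 18 larger and 1 smaller in erythroid cells (of 23934 genes 13.2% were called, 5.28% larger). Between erythroid and epidermal cells 20 differed, beside 12.4% of all genes, and between T and epidermal cells also 20, beside 14.9%. Erythroid and B cells differed for 15 models (2.89%; 2.28% larger in erythroid cells), T and B cells for 4 (0.405%) and B and epidermal cells for 2 (1.24%). For H2BC12 the erythroid effect exceeded that of T cells by 1.43 ± 0.28 (difference of log2 fold changes, SE), that of B cells by 2.63 ± 0.37 and that of epidermal cells by 3.12 ± 0.30. H2BC4 showed the largest differences among the models with most UMIs, 2.37 ± 0.30 against T and 3.85 ± 0.32 against epidermal cells, and H2AJ differed by 1.83 ± 0.32 and 3.44 ± 0.35. H2AZ1 differed less, by 0.62 ± 0.11 and 1.53 ± 0.12, and H1-3 by 0.49 ± 0.11 against T cells, while H1-10 was not called between erythroid and T cells (−0.01 ± 0.09). The model with a smaller erythroid effect was H2AC21 AMEX60DD201023368.1 (−1.39 ± 0.26 against T cells). H1-4 AMEX60DD201009450.2, with 46 and 71 UMIs in all cycling erythroid and T cells, and H2AC20 AMEX60DD201009474.1, with 56 and 34, were called between erythroid and T cells too (1.86 ± 0.64 and 2.84 ± 0.89). H1-4 came unevenly from the samples. It had 0, 0.843 and 10.6 CPM (lowest, median and highest) in cycling erythroid and 0, 0.430 and 4.94 in cycling T cells. Its non-cycling erythroid and T cells held 8 and 30 UMIs, and those of this H2AC20 model 3 and 14. H1-5 was called against epidermal cells, in erythroid (1.28 ± 0.43) and in T cells (1.33 ± 0.35).

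The erythroid excess over T cells depended on how cycling was called. With cycling called at 1 UMI or more on cells thinned to 3000 UMIs of all kinds, the H2BC12 excess was not seen. The H2BC12 fold, given above with the tests per class, was then slightly smaller in erythroid than in T cells. Haemoglobin was kept in the thinning, and its median share was 78.1% in erythroid and 0.653% in T cells. Non-haemoglobin depth thus stayed unequal, and this call cannot show whether the excess holds at equal depth. The joint fit under that call is not given here. With the line at 4 UMIs of MKI67 and TOP2A, 7 histone models were called between erythroid and T cells in place of 19. The share of all genes called at that line is not given here. The H2BC12 difference was then 0.46, that of H2AJ 0.77, that of H3C14 AMEX60DD301038934.1 0.080 and that of H2AC20 AMEX60DD201035414.1 0.014, all uncalled, while H2BC4 (1.40), H3C14 AMEX60DD201028092.1 (0.94), H4C1 (0.77), H2BC11 (1.03), H2AZ1 (0.47), H1-3 (0.43) and H2AC21 AMEX60DD201023368.1 (−1.46) were called in the same direction as before. Between T and B cells the called models were H2AC20 AMEX60DD201028808.1 (2.06 ± 0.27), H2BC11 (1.81 ± 0.40), H2BC13 (1.78 ± 0.39) and H2AC20 AMEX60DD301028089.1 (1.42 ± 0.33), all larger in T cells. Between B and epidermal cells they were H3C14 AMEX60DD301038934.1 (1.40 ± 0.38) and H2AZ1 (0.88 ± 0.16), both larger in B cells.

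Within the cycling cells the level varied widely from cell to cell. In cycling erythroid cells H2BC12 had a median of 19591 per cell, with 116 at the 10th and 40891 at the 90th percentile, against a median of 0 and a 90th percentile of 406 in non-cycling erythroid cells. Cycling T cells had a median of 1128 and a 90th percentile of 16800, against 142 and 489 in non-cycling T cells, and cycling epidermal cells 2084 and 16205, against a non-cycling median of 345. The median cell lay nearer to the 90th percentile in cycling erythroid than in cycling T or epidermal cells. H1-3 was more even, with medians of 4200 and 2198 in cycling and non-cycling erythroid cells and of 1211 and 956 in T cells.

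Cycling cells of each sample were then ranked by the summed level of a list of DNA replication genes and cut into 4 bins of about equal size, as a description without a test. H2BC12 averaged 10361, 22094, 24075 and 21574 CPM from the lowest to the highest bin in erythroid cells (7 samples), 1892, 5836, 7911 and 7148 in T cells (7 samples), and 1060, 3552, 8694 and 8742 in epidermal cells (4 samples). Samples differed most in the lowest bin of T cells, where H2BC12 ran from 145 to 5286. It was higher in the top than in the bottom bin in every sample of the 3 classes, by a mean log2 ratio of 1.37, 2.83 and 3.13. H2AJ (1.26, 2.82 and 3.65) and H3C14 AMEX60DD301038934.1 (1.46, 2.79 and 2.97) ran alike. H1-3 ran the other way, with 5947 ± 574, 5198, 4383 and 3260 ± 269 in erythroid cells and 1147, 1204, 893 and 447 in epidermal cells, and it was lower in the top bin in every sample (mean log2 ratios −0.87, −0.49 in T cells and −1.57). H2AZ1 followed the ranking in T cells, with 311, 569, 699 and 766 and a higher top bin in 7 of 7 samples. It was nearly flat in epidermal cells, with 426, 450, 424 and 471 and a higher top bin in 2 of 4. H2BU1 (1.39) and H2AC1 (−0.95) moved in opposite directions in T cells, each in 7 of 7 samples.

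**Figure D4:**
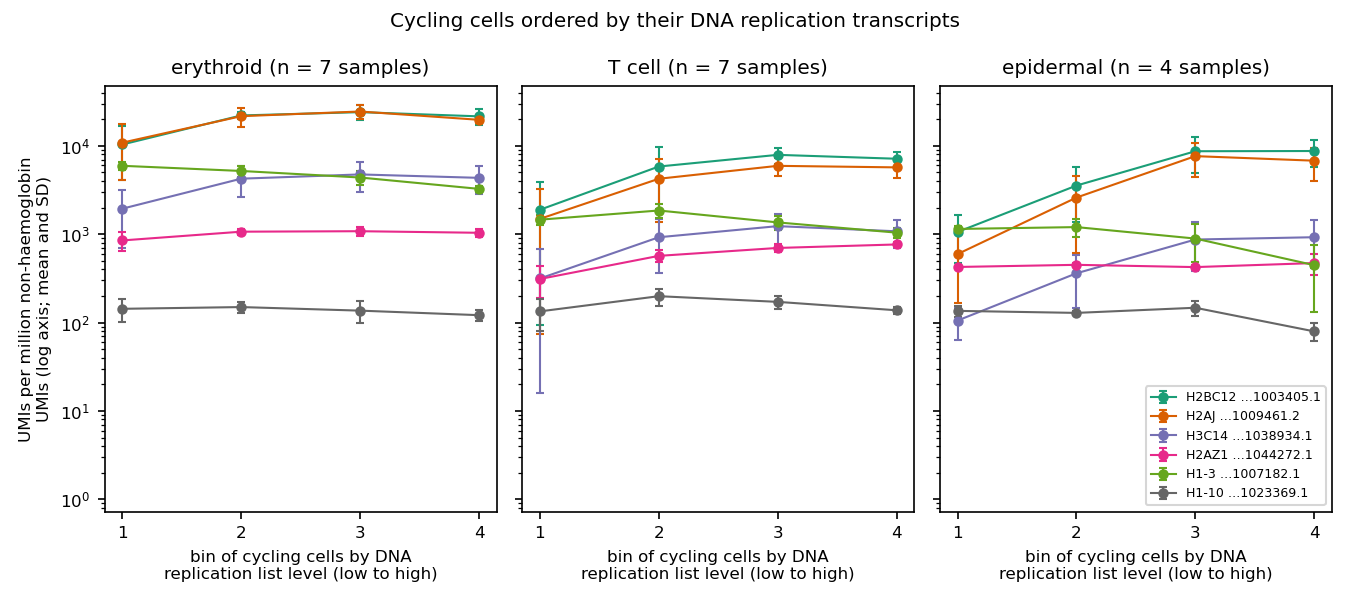
Mean level (CPM) with its SD over samples of 6 histone genes in 4 bins of the cycling cells ranked within each sample by a DNA replication gene list, in erythroid (7 samples), T (7) and epidermal cells (4); the axis is logarithmic and a lower error bar that would reach 0 is drawn shortened. H2BC12 climbs from 1892 in the lowest bin to 7911 in the third in T cells, and H1-3 declines to 3260 in the highest bin of erythroid cells, against 5947 in the lowest.

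Genes that act on histone mRNA and protein were counted in the same cycling comparison. Of 9 tested genes of histone mRNA processing, 8 rose and 1 fell in erythroid cells, 6 rose in T cells, 3 in B cells and 4 in epidermal cells. Of all genes tested, 23.9% rose in erythroid, 25.6% in T, 6.18% in B and 11.8% in epidermal cells. In the same classes 25.3, 20.9, 4.39 and 11.5% fell. SLBP, which binds the stem-loop of cluster histone mRNAs, rose in all 4 classes, by 2.17 ± 0.13 in erythroid, 2.10 ± 0.055 in T, 1.88 ± 0.24 in B and 1.56 ± 0.10 in epidermal cells (log2 fold change, SE). ERI1, an exonuclease of the stem-loop end, rose by 0.82 in erythroid and 0.85 in T cells, and CASP8AP2, a processing factor also known as FLASH, by 0.74 and, in epidermal cells, 0.44. NPAT, an activator of cluster gene transcription, rose by 0.50 in epidermal cells; SYMPK, a scaffold of the cleavage complex, rose by 0.75 in T and 0.89 in B cells. CPSF2 fell by 0.21 on the log2 scale in erythroid cells. Of the histone chaperone and deposition genes, 18 of 27 rose and 2 fell in erythroid, 19 of 28 rose and 2 fell in T, 12 of 26 rose in B and 13 of 25 in epidermal cells. ASF1B, an H3 and H4 chaperone, rose by 1.95, 2.04, 1.88 and 1.35 in erythroid, T, B and epidermal cells. ANP32E, a chaperone of H2A.Z, rose by 2.11 in erythroid and 1.64 in epidermal cells, while both VPS72 models, named for an H2A.Z deposition factor, fell in erythroid cells (−0.60 and −0.31).

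A DNA replication gene list was counted in the same way. Of its tested genes 26 of 29 rose in cycling erythroid, 29 of 30 in T (1 fell), 21 of 28 in B and 26 of 28 in epidermal cells. Of all genes tested 23.9, 25.6, 6.18 and 11.8% rose in these classes. TK1 and RRM2 (thymidine kinase and a ribonucleotide reductase subunit) led, at 3.62 and 2.88 in erythroid and 3.49 and 3.54 in T cells. Between erythroid and T cells the cycling effect differed for 14 of its 35 genes, 4 larger and 10 smaller in erythroid cells (median difference −0.10). Of all genes 13.2% differed, 5.28% larger and 7.9% smaller. Of the histone models 18 were larger and 1 smaller, and the lists were not set against each other by a test. H3-3A, which encodes the replication-independent H3.3, was left out of the 60 histone models and set beside them. Its model AMEX60DD301020670.1 had 1738, 2059 and 2305 CPM in cycling erythroid cells, against 112, 196 and 322 in non-cycling ones (log2 fold change 3.45 ± 0.11), while AMEX60DD201036269.5 had 1032, 1101 and 1192 CPM in cycling erythroid cells, against 606, 672 and 896 in non-cycling cells (0.60).

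Non-cycling cells kept differences between classes. Each class was set against the mean of the other 4, with 24 histone models tested. In erythroid cells 9 were higher and 8 lower, beside 34.5 and 31.5% of all 18565 genes. In T cells 4 were higher and 11 lower (26.9 and 26.4%), and in B cells 8 and 6 (27.9 and 28.1%). In epidermal cells they were 15 and 6 (38.8 and 35.7%) and in macrophages 2 and 9 (21.4 and 25.1%). Called in either direction were 66, 53.3, 56, 74.5 and 46.5% of all genes, and the histone totals lay near these shares. The directions did not: histone models leaned higher in epidermal cells and lower in T cells and macrophages. This lean was not tested. The erythroid directions rest on leaving haemoglobin out of the total: per 1000000 UMIs of all kinds, 1 of the 9 models called higher lay above the geometric mean of the other 4 classes and 0 above all 4. The largest folds belonged to sparse models. H2AC1 had 21.6, 28.5 and 31.2 CPM in non-cycling T and 11.5, 23.5 and 29.0 in B cells, against means of 0.2 in epidermal, 0.473 in erythroid and 2.37 in macrophage cells, and its log2 fold change against the other classes was 4.02 ± 0.14 in T (adjusted p = 2.0e-25, edgeR) and 3.74 ± 0.17 in B cells. H1-8 averaged 9.02 ± 0.929 in epidermal cells (SD, n = 7), against 0.243 to 0.33 in the other classes (log2 fold change 5.32 ± 0.19). H2AC21 AMEX60DD201053861.1 averaged 24.9 ± 4.42 in erythroid cells, against 2.60 to 6.93 elsewhere (2.54 ± 0.10), but per 1000000 UMIs of all kinds it had 5.28 in erythroid cells, within the 2.63 to 6.82 of the other classes. H2AC21 AMEX60DD201023368.1 was at 9.36 ± 2.54 in erythroid cells and 9.75 ± 5.08 in macrophages, against 1.47 to 3.04 in the others; per 1000000 UMIs of all kinds the erythroid value was 2.16. H2BC11 averaged 11.1 ± 3.80 in B cells (2.53 ± 0.21) and 0.528 ± 0.416 in erythroid cells (−3.17 ± 0.29). H2BU1 was highest in T cells (37.3 ± 7.04, against 22.3 ± 6.25 in B and under 10 in the others) and H2BE1 in B cells (61.1 ± 15.2).

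H1-3, the most abundant histone transcript of non-cycling cells, averaged 2883 ± 177 in erythroid cells (SD, n = 7), against 1161 ± 80.9 in T, 1015 ± 122 in B, 937 ± 103 in macrophage and 509 ± 67.8 in epidermal cells. No sample of the erythroid class overlapped the others, and its log2 fold change was 1.74 ± 0.064 (adjusted p = 3.2e-24), but this direction turns with the scale. Per 1000000 UMIs of all kinds, haemoglobin included, erythroid cells had 635, against 1183 in T, 1063 in B, 936 in macrophage and 490 in epidermal cells. H2AC20 AMEX60DD201028808.1 was lowest in erythroid cells, with 40.6 ± 18.6 CPM there, against 85.7 ± 9.56 in T, 230 ± 97.0 in macrophage, 236 ± 52.0 in epidermal and 310 ± 60.7 in B cells (erythroid log2 fold change −2.31 ± 0.18). The other H2AC20 model of this level, AMEX60DD301028089.1, had 290 ± 175, 121 ± 30.8, 158 ± 55.9, 200 ± 48.8 and 177 ± 91.5 in the same classes, so the H2AC20 models did not keep a fixed ratio. H4C3 was higher in epidermal cells (1.28 ± 0.19) and H1-10 stayed between 51.0 ± 7.46 in B and 91.8 ± 10.7 in T cells. Free RNA could add to low levels: haemoglobin was 0.33 to 0.76% of the UMIs of non-cycling cells in the 4 other classes. H2BC12 had 33.3 to 136 UMIs per 1000 haemoglobin UMIs in those non-cycling classes, against 2.88 over all kept cells. The make-up of free RNA was not measured, and its part in these levels was not tested.

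Contra and intact samples were compared over all kept cells and within each class. Over all cells the histone sum was 6175, 6898, 9275 and 8643 CPM in contra 1, 2, 4 and 5, against 9481, 7662 and 9310 in intact 1, 2 and 4. H2BC12 had 1234, 1569, 2245 and 2451 CPM in the contra samples, against 1956, 1886 and 2636 in the intact ones, and H2AJ 953, 1805, 2501 and 2205 in contra, against 1792, 1460 and 1925 in intact samples. The groups overlap for both, with log2 fold changes of −0.18 ± 0.30 and 0.13 ± 0.34. H1-3 had 1611, 1316, 1113 and 986 CPM in contra, against 1767, 1852 and 1128 in intact samples (−0.28 ± 0.25), and H2AZ1 249, 298, 285 and 286 in contra, against 315, 286 and 322 in intact samples (−0.11 ± 0.16). Such a sum follows the mix of cells in a sample as well as the level in each cell. H2AC20 AMEX60DD301028089.1 had 816, 829.5, 1192 and 1075 CPM in contra, against 1383, 894 and 1078 in intact samples. H2BC4 had 254, 158, 464 and 352 CPM in contra, against 598, 215 and 492 in intact samples (−0.50 ± 0.49), and number 2 was the lowest sample in both groups. H3C14 AMEX60DD301038934.1 had 248, 153, 406 and 291 CPM in contra, against 496, 249 and 408 in intact samples (−0.46 ± 0.40).

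The remaining models of the 12 overlapped as well. H2AC20 AMEX60DD201028808.1 had 188, 262, 289 and 316 CPM in contra, against 218, 191 and 417 in intact samples. H2AC20 AMEX60DD201035414.1 had 141, 106, 266 and 205 CPM in contra, against 283, 183 and 238 in intact samples, and H3C14 AMEX60DD201028092.1 had 164, 122, 195 and 171 CPM in contra, against 294, 130 and 264 in intact samples. H1-10, nearly level across all 7 samples, had 90.4, 99.7, 99.4 and 86.2 CPM in contra, against 81.5, 85.0 and 100 in intact samples. H2BC13 had 55.6, 62.8, 81.1 and 80.8 CPM in contra, against 93.3, 79.1 and 114 in intact samples (−0.42 ± 0.23). None of the 38 histone models tested passed in edgeR's quasi-likelihood test (0% of 32711 genes called), and none had an unadjusted p under 0.05, which 840 genes had; DESeq2 called 14 genes and no histone model.

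With the filter on low counts and without the replicate number as a block, no histone model passed between contra and intact samples within the erythroid, T, B and macrophage classes. Fits with that block are given at the end of this paragraph. In cycling erythroid cells H2BC12 had 17749, 16093, 18672 and 22999 CPM in contra samples, against 18324, 21288 and 23651 in intact samples, and H2AJ 14834, 21133, 24396 and 22444 in contra, against 22125, 15096 and 16764 in intact samples. In cycling T cells H2BC12 had 5170, 4425, 6937 and 8565 CPM in contra, against 5953, 3946 and 8077 in intact samples. The contra and intact ranges overlap for these genes. H2BC13, singled out after its values were seen, did not overlap in cycling erythroid cells, with 715, 608, 649 and 729 CPM in contra, against 814, 864 and 987 in intact samples. Its log2 fold change in cycling cells alone, a fit added after seeing the data, was −0.42 ± 0.12 (unadjusted p = 0.0039, adjusted p = 0.546, edgeR), and it was the only 1 of 26 histone models there with an unadjusted p under 0.05, beside 5.31% of all genes. In non-cycling erythroid cells 3 of 28 models (H2AC20 AMEX60DD301028087.1, H3C11 and H3C14 AMEX60DD201009305.1) lay wholly above the intact samples, as 3.51% of all genes did. In non-cycling T cells 1 of 28 (H2AC20 AMEX60DD301028087.1) lay wholly below, as 1.49% did. All were near the floor, with at most 2.42 CPM in any of these erythroid and 1.22 CPM in any of these T cell samples. H3C14 AMEX60DD201009305.1 had 42 UMIs in all non-cycling erythroid cells. The 28 passed the filter on low counts over all cells of the class. In non-cycling cells alone 22 models were tested in erythroid and 25 in T cells. In macrophages H2BC13 and H2BC4, 2 of 14, lay wholly below the intact samples (2.09% of all genes). With that filter and without the block edgeR called no gene and no histone model in any of the 5 classes (0%). Unadjusted p-values under 0.05 went to 0 of 28 histone models in erythroid, 1 of 28 in T, 0 of 18 in B and 3 of 14 in macrophage cells, beside 4.78, 1.67, 1.41 and 3.49% of all genes; DESeq2 called no histone model in any class, and 30, 0, 1, 56 and 0 genes in erythroid, T, B, epidermal and macrophage cells. Samples with the same number deviated together over all cells and, less so for number 4, in T and B cells. The correlations for number 4 were 0.26 in T and 0.115 in B cells. With the replicate number as a block, unadjusted p-values under 0.05 went to 8 of 37 histone models over all cells (6.19% of all genes), 12 of 28 in T cells (6.4%) and 11 of 19 in B cells (6.42%). None passed the adjusted threshold over all cells or in T cells. In B cells 2 passed, both lower in contra, and the share of all genes that passed there is not given here. H2BC4 had 191, 42.6, 169 and 196 CPM in contra B cells, against 299, 91.7 and 336 in intact ones (blocked log2 fold change −0.91, adjusted p = 0.00782, edgeR), and H2AJ 541, 188, 737 and 1413 in contra, against 726, 343 and 1439 in intact samples (−0.77, 0.0134). Only numbers 1, 2 and 4 enter that fit, and the unblocked H2AJ value turned positive without intact 4 (0.28). In non-cycling B cells alone neither passed with the block (H2BC4 −0.75 and H2AJ −0.19, no histone model called).

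In epidermal cells several histone genes were lower in contra samples, none of them past the adjusted threshold in the fit with the filter on low counts. H1-3 had 454, 505, 483 and 471 CPM in contra samples, against 606, 632 and 611 in intact samples, with no overlap (log2 fold change −0.35 ± 0.14, adjusted p = 0.589, edgeR). H2AZ1 had 180, 217, 199 and 234 CPM in contra, against 294, 288 and 258 in intact samples (−0.42 ± 0.14, adjusted p = 0.553), and H4C3 10.1, 15.7, 12.5 and 15.2 in contra, against 21.4, 19.4 and 19.1 in intact samples (−0.57 ± 0.16, adjusted p = 0.532). H2BC12 overlapped, with 391, 536, 772 and 1004 in contra, against 843, 672 and 1347 in intact samples (−0.51 ± 0.31). Of 32 histone models 11 had an unadjusted p under 0.05, all of them lower in contra, while 8.04% of all genes had one, and 6 lay wholly below the intact samples, while 5.01% of all genes did. The median log2 fold change was −0.51, against −0.01 over all genes. Replication list genes stood beside them, with a negative value in 31 of 31 and a median of −0.38, none called.

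The epidermal samples also differed in size, depth and cycling. Contra samples had 262, 883, 1540 and 2628 epidermal cells, against 203, 154 and 1470 in intact ones, and median non-haemoglobin UMIs per cell of 17442.5 to 26245.5, against 25415.5 to 31775.5. The cycling share was 4.73 ± 1.72% in contra and 10.4 ± 1.78% in intact samples (SD, n = 4 and 3; two-sided exact permutation p = 0.0286, the smallest that 35 splits allow; 0.143 adjusted over the 5 classes). With cells thinned to 3000 UMIs and the cycling line at 1 UMI it was 3.72 and 4.73% (exact permutation p = 0.514). Depth and line changed together there. In non-cycling epidermal cells alone, H1-3 had 441, 474, 467 and 442 CPM in contra, against 576, 588 and 577 in intact samples, and H2AZ1 169, 206, 184 and 213 in contra, against 275, 253 and 238 in intact samples. There 10 of 30 histone models had an unadjusted p under 0.05 (7.94% of all genes), with a median of −0.42 and none called. In cycling epidermal cells alone it was 1 of 20 (3.48% of all genes), with a median of −0.008. Cycling epidermal cells were few: 9 in contra 1, under the 10 needed for a sum, and 18 and 19 in intact 1 and 2. With the replicate block 15 of 28 had an unadjusted p under 0.05 (17.8% of all genes) and the lowest adjusted p was 0.0511. The part of cell number, depth and cycling share in these values was not tested.

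**Figure D5:**
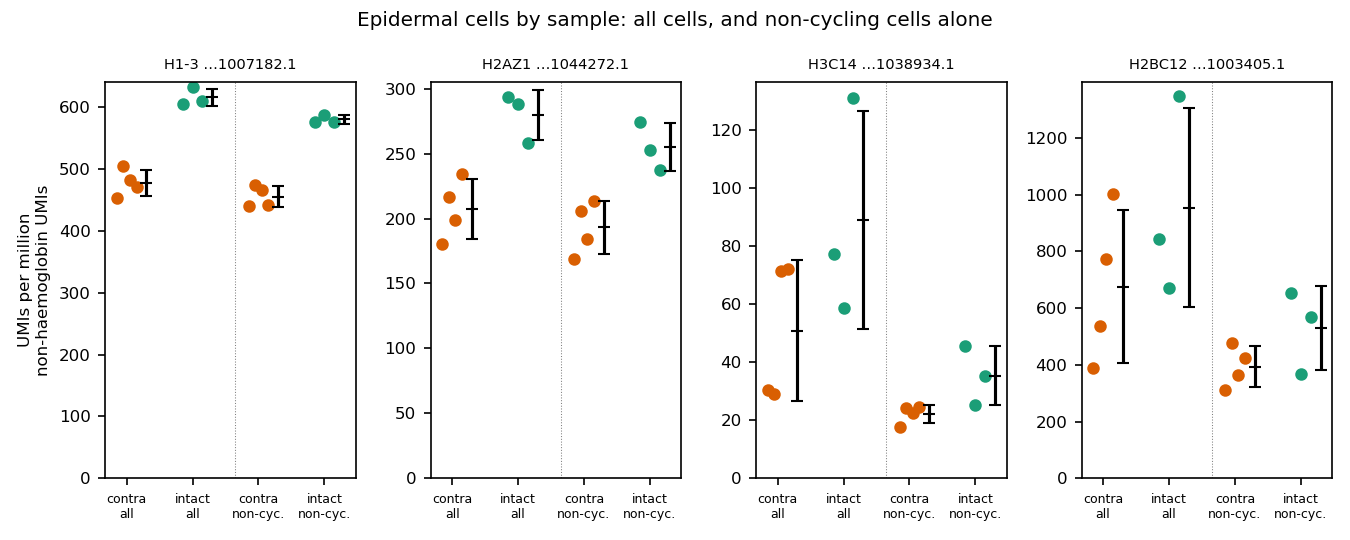
Level per sample (CPM) of H1-3, H2AZ1, H3C14 AMEX60DD301038934.1 and H2BC12 in epidermal cells, contra left of intact, over all cells and over non-cycling cells. The contra points of H1-3 (454 to 505) lie below the intact ones (606 to 632) and those of H2BC12 overlap. No gene passed an adjusted p of 0.05 in edgeR's test with the filter on low counts and without a replicate block.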

How the data were processed

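The sources give single-cell 3′ libraries of 2C-sorted limb cells, and the authors deposited 1 matrix of whole-number UMI counts for gene models in cells, without normalization, per the file headers. The submitters' processing notes name kallisto 0.48.0 and Seurat 4.2.0 without their roles; the sources used here give no build or annotation. Every cell of the matrix held 3003 or more UMIs and 1000 or more genes. RefSeq's table (assembly UKY_AmexF1_1) lists none of the identifiers, so symbols come from the files and no sequence or position is given.

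Doublets scored above 0.25 with Scrublet (scanpy 1.11.5, expected rate 5%) were removed (439 of 35013 cells); 118 barcodes occurred in 2 or more samples. Classes needed a haemoglobin share of 10% (erythroid), 5 marker UMIs (T, B, macrophage) or 30 (epidermal), cutoffs chosen after the marker distributions were seen. UMIs were summed per sample, class and cycling state (at least 20 cells, or 10 cycling cells). Tests were two-sided edgeR 4.0.16 quasi-likelihood tests (R 4.3.3) with TMM and filterByExpr, called at an adjusted p of 0.05, and DESeq2 1.42.0 was an alternative; the fits were tested on simulated data. Cycling was compared with the sample as a block. The p-values rest on the spread between these samples together with a dispersion that edgeR partly shares across genes. With few samples, as the 3 of the cycling B cell fit, the shared part weighs more. The sources do not say that each sample is a separate animal.

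The histone genes, pathway lists and tests were chosen with earlier results of these data known. Every histone model with at least 1000 UMIs or with a call in the main fits is named, the 12 with most UMIs with per-sample values. Of the pathway lists up to 3 called genes per direction are named. Same-numbered contra and intact samples deviated together (correlations of deviations for numbers 1, 2 and 4 of 0.54, 0.40 and 0.49 over all cells, 0.45, 0.55 and 0.26 in T, 0.51, 0.53 and 0.115 in B and 0.33, 0.39 and 0.148 in epidermal cells), so the numbers were taken to pair samples there, but not in erythroid cells (0.24, 0.15 and 0.071) or macrophages (0.011, 0.22 and −0.014). Number 4 of B and epidermal cells lay below numbers 1 and 2 of erythroid cells, so this split is not sharp.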

Additional observations from a re-analysis of the deposited data

Results flagged for a closer look

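In the cycling comparison the size of the difference between cycling and non-cycling cells itself differed between classes for 19 of 36 tested histone gene models between erythroid and T cells (13.2% of all genes), 15 between erythroid and B cells (2.89%), 20 between erythroid and epidermal cells (12.4%), 4 between T and B cells (0.405%), 20 between T and epidermal cells (14.9%) and 2 between B and epidermal cells (1.24%; edgeR's quasi-likelihood test of the difference, adjusted p under 0.05). With the cycling line at 4 UMIs, 7 were called between erythroid and T cells. With cycling called at 1 UMI on cells thinned to 3000 UMIs, the H2BC12 fold was slightly smaller in erythroid than in T cells. Haemoglobin counted in the 3000, so non-haemoglobin depth stayed unequal.

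Single contra samples stood apart from the other 3 in 9 of 161 sets of 4 values looked at, and chance gives about 1 in 20. Contra 2 was low for H2BC4 in cycling erythroid cells (1497 CPM) and for H3C14 AMEX60DD301038934.1 in cycling T cells (413 CPM), and high for H2AC20 AMEX60DD201028808.1 in non-cycling epidermal cells (337) and for the cycling share of macrophages (12.1%). Contra 5 was high for H1-10 in cycling erythroid cells (163), for H1-3 in non-cycling erythroid cells (3194) and for H2AC20 AMEX60DD301028089.1 over all epidermal cells (354). Contra 1 stood apart for H2AZ1 in non-cycling erythroid cells (163) and for H3C14 AMEX60DD301038934.1 in non-cycling B cells (25.6).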

How the results depend on the processing

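Over the alternatives, 269 results of single histone genes gave 3673 further values: 3406 kept their direction and side of the threshold, 242 kept the direction and lost the call, 4 gained one and 21 reversed. Contra against intact stayed at 0 histone models called over all cells in every alternative run. Within classes the exceptions to 0 were 3 in T and 3 in epidermal cells without the filter on low counts and 2 in B cells with the replicate block, which changed no other call. The models called without the filter are not named here. The shares of all genes called in these fits are not given here. H2AJ in B cells ran from −0.79 to 0.28 when each sample was left out, reversed without intact 4, and was 0.83 with a stricter marker cutoff; H4C3 in epidermal cells was 0.13 in cycling cells only, an alternative added after seeing the data. For cycling against non-cycling cells, thinning to 3000 UMIs, which left fewer genes tested, called 15 (erythroid), 11 (B) and 13 (epidermal) histone models. Of the histone models still tested, only H2BE1 was uncalled in erythroid and in epidermal cells. In T cells H2BE1 and H2AC1 were uncalled, and in B cells H1-3, H4C3, H2BE1, H2AC1 and H2BU1. Calling cycling on thinned counts, with the line at 1 UMI, gave 15 in erythroid cells. Without the sample block (no replicate block) 24, 21, 12 and 17 were called in erythroid, T, B and epidermal cells. Leaving out each sample gave 24 to 25, 23 to 25, 17 and 20 to 21. For differences of the cycling effect, a line of 4 UMIs called 7 between erythroid and T cells and a line of 1 UMI called 1 between B and epidermal cells. Thinning called 13 (erythroid minus epidermal), 8 (T minus B), 12 (T minus epidermal) and 1 (B minus epidermal), and DESeq2's size factors 1 (T minus B) and 13 (T minus epidermal). Leaving out each sample gave 14 to 19, 14 to 16 and 17 to 22 for erythroid minus T, B and epidermal cells. For a class against the others, taking all cells in place of non-cycling ones called 21 in macrophages. It also turned the log2 fold change of T cells for H2BC12 (0.54), H2AJ (0.34), H2BC13 (0.34), H3C14 AMEX60DD201028092.1 (0.25), H2AC20 AMEX60DD201035414.1 (0.87) and H2AC20 AMEX60DD301028089.1 (0.59), of epidermal cells for H2BC12 (−0.66), H2AJ (−0.83), H2BC4 (−0.76), H2BC13 (−0.64), H3C14 AMEX60DD201028092.1 (−0.55) and H2AC20 AMEX60DD301028089.1 (−0.82), of B cells for H2BC13 (−0.29) and H3C14 AMEX60DD201028092.1 (−0.18), of erythroid cells for H4C3 (0.56) and H2BC13 (2.19) and of macrophages for H2AC20 AMEX60DD201028808.1 (−0.45). A stricter marker cutoff turned H2AC21 AMEX60DD201023368.1 in macrophages (−0.57). The cause of these changes was not tested. Depth limits the sparse models: 35 of the 60 histone models had under 1000 UMIs over all kept cells, and cycling B and macrophage cells were few.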

Other observations

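The ratio of H2BC4 to H2BC12 varied across samples. In cycling erythroid cells H2BC4 had 9.30 UMIs per 100 UMIs of H2BC12 in contra 2 and 10.1 in intact 2, against 16.9 to 35.6 in the other 5 samples. Over all kept cells it had 10.1 in contra 2 and 11.4 in intact 2, against 14.4 to 30.6. The low samples are the 2 that carry replicate number 2, 1 in each group. They were the lowest in 3 of the 9 sets of class and cycling state looked at, and not in cycling T cells, where contra 5 had 8.32 and intact 2 had 9.25. Some other models shared this, each in 1 of 9 sets. In cycling erythroid cells H3C14 AMEX60DD301038934.1 had 11.7 in contra 2 and 13.3 in intact 2, against 14.5 to 33.2 in the others. H2AC20 AMEX60DD201028808.1 had 2.82 and 2.34 there, against 3.26 to 4.32. H2AC20 AMEX60DD201035414.1 did so in cycling epidermal cells and H2BC13 in non-cycling B cells. H2BC13 varied less, with 3.17 to 4.44 UMIs per 100 of H2BC12 in cycling erythroid cells. This pattern was noticed in the data and not tested.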
